A study of Mus musculus with 6 samples.

Results

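DNA replication and S phase genes encode the machinery that copies the genome once in each cell cycle, and 45 of them, out of 19054 genes with a named probe on the array, were followed here in embryonic mouse hindbrain. They were taken as a list by gene symbol, with every probe annotated to them: 90 probes, of which 67, for 39 of the 45 genes, were above background often enough to be tested. The list was ordered by role into the sliding clamp and its loader, the replicative helicase, origin licensing, polymerases and primase, single-strand binding and Okazaki fragment processing, nucleotide supply, and a group of cyclin E, histone mRNA and DNA methylation genes.

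In a dividing cell, origins are licensed in G1 when the origin recognition complex, CDC6 and CDT1 load the MCM helicase onto DNA. In S phase the helicase is activated, primase and polymerase alpha start each strand, and polymerases delta and epsilon extend it while held by the ring-shaped clamp PCNA. Many of these genes are transcribed under E2F factors as cells enter S phase. In the embryonic neural tube they are expressed in the progenitors of the ventricular zone and are switched off as neurons leave the cell cycle. In whole tissue their level depends in part on the share and the activity of cycling cells, progenitors among them. In such bulk RNA, fewer cells of a type and less RNA per cell cannot be told apart.

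Rhombomere 1, the most anterior hindbrain segment, was dissected from E12.5 embryos of the ICR (CD-1) strain, and RNA was pooled from 6 pieces of a genotype, with 3 control and 3 mutant pools and 1 Illumina Mouse WG-6 array each. Control embryos carried En1-cre and Gata2 flox/+ (1 floxed allele), although their samples are titled wildtype, and mutant embryos (gata2cko) carried En1-cre and Gata2 flox/flox (2 floxed alleles). Both genotypes therefore carry the Cre recombinase, driven from En1 in midbrain and rhombomere 1, and differ in the second floxed allele. The pools are called biological replicates in the series' design text; arrays are named here by the labels of the intensity columns, 5R, 6R and 7R for controls and 1R, 2R and 3R for mutants.

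Each array had 42.8% to 45.1% of its probes above background. En1 and En2, which mark this region, had means of 11.59 and 12.45 in controls and 11.34 and 12.27 in mutants (normalized log2 intensity, n = 3). Gbx2 and Fgf8, also listed as region markers, went the other way. They were higher in mutants by 0.67 and 0.41 (adjusted p = 0.628 and 0.51 by limma), with overlapping groups. Gbx2 varied widely between pools of a genotype, with an SD of 0.77 in controls and 0.75 in mutants. Pax2 and Pax5 did not pass the detection filter. Gata2 has 1 named probe, which was 0.36 higher in the mutants (adjusted p = 0.412 by limma); whether it lies in the deleted sequence is not stated in the labels, so it checks nothing. Of 10524 tested genes, 18 passed an adjusted p of 0.05 (limma, Benjamini-Hochberg), and this count was 9 without array 5R, 10 without 6R, 11 without 7R and 51 without 1R.

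The replication genes were slightly higher on average in the mutant pools, and no single one of them passed. Of the 39 measured genes, 33 had a higher mean in gata2cko and 6 a lower one, 84.6% against 53.3% of all genes tested. The median difference, gata2cko minus control, was 0.16 on the log2 scale, where the median of all genes tested was 0.01. Single differences ran from -0.10 for Rfc4 to 0.45 for Ung.

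By limma, 0 of the 39 passed an adjusted p of 0.05, beside 0.171% of all genes tested (0.038% higher in gata2cko and 0.133% lower). The smallest adjusted p among the replication genes was 0.238. At an unadjusted p under 0.05 there were 8 replication genes, all higher in gata2cko, which is 20.5% of those measured, beside 4.34% of all genes tested that were higher at this threshold and 4.48% that were lower (8.83% in either direction). The 3 mutant values lay above the 3 control values in 8 of the 39, also 20.5%, beside 7.69% of all genes tested. In 0 of the 39 all mutant values lay below all control values, beside 6.45% of all genes tested. These counts depend on single arrays. Without control array 6R the number at an unadjusted p under 0.05 was 3, where 3.04% of all genes tested were higher at that threshold, and without mutant array 2R it was 5, where 3.06% were. Without control array 7R the number of genes with separate groups was 20, without mutant array 1R it was 14 (12 of them higher), and without 3R it was 16. Groups of 2 arrays separate more easily than groups of 3, and over all genes tested 15.0%, 15.9% and 14.0% were separate and higher in those 3 fits. The members' median was 0.11 without array 6R and 0.21 without array 7R, the lowest and highest of the leave-one-out fits.

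The precision was enough to bound the differences in measured intensity. The 95% interval of a difference reached, at the median over members, 0.27 to each side. It lay wholly within a 1.5-fold change in either direction for 34 of the 39 genes and within a 2-fold change for all 39. For a probe near background, such as that of Pcna, a bound on intensity says little about the transcript.

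**Figure D1:**
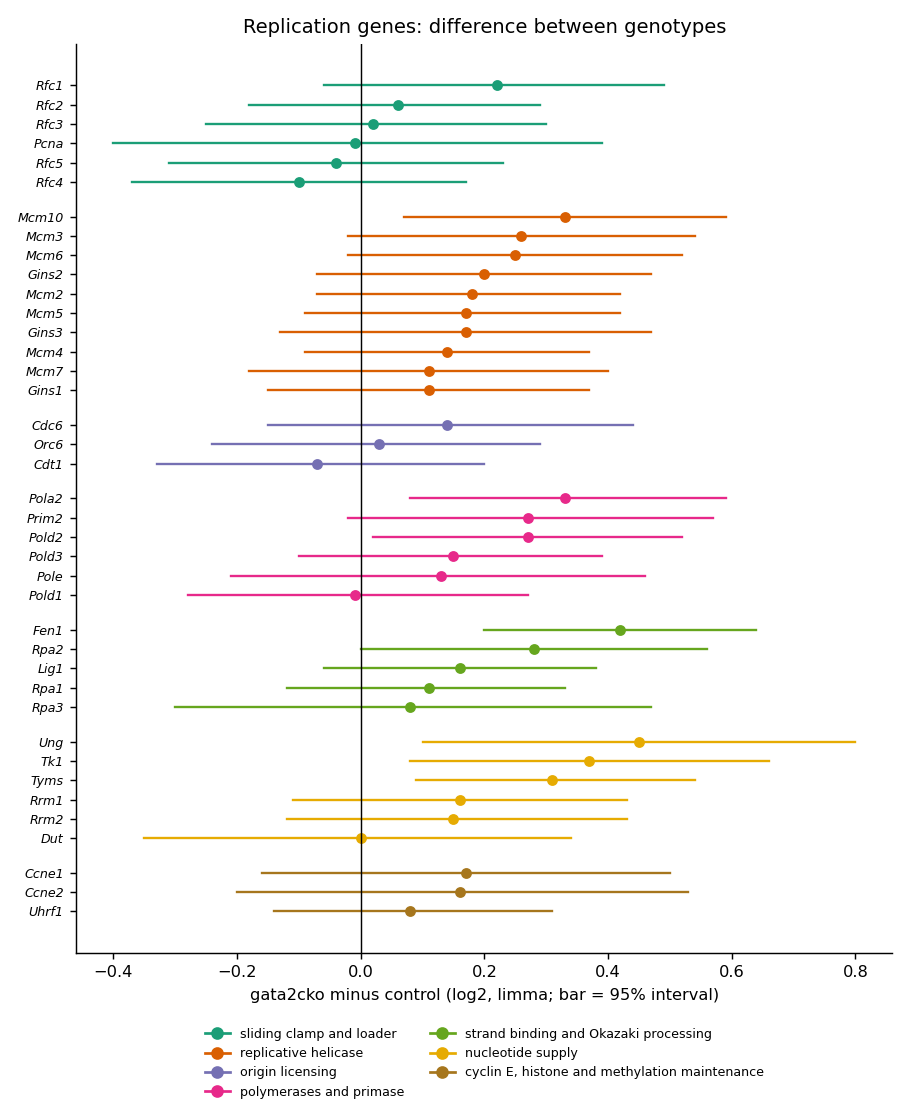
Difference between gata2cko and control pools for each of the 39 measured replication genes, in log2 units on the horizontal axis, grouped by role; points are limma estimates and bars their 95% intervals, with 3 pools per genotype. All 10 helicase genes lie to the right of 0, the clamp and loader genes lie on both sides of it, and no gene passed after adjustment over all genes.

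**Figure D2:**
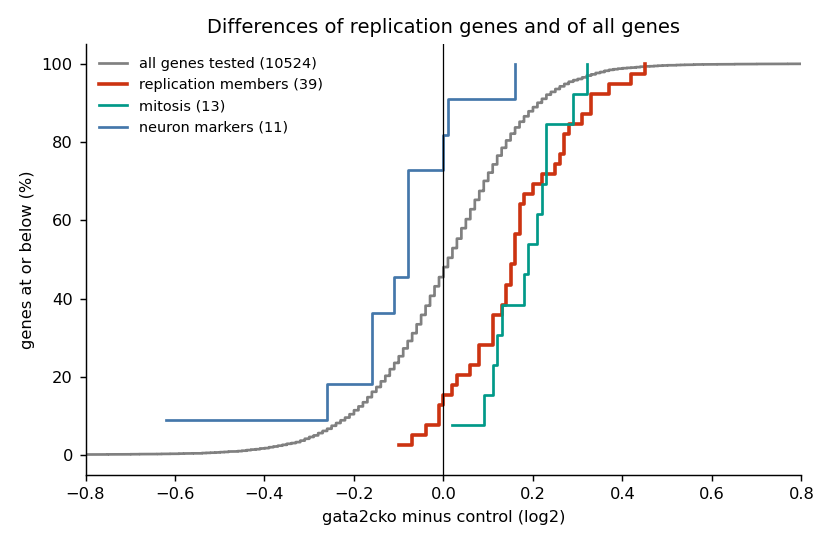
Cumulative share of genes (vertical axis, percent) at or below a given difference between gata2cko and control (horizontal axis, log2), for all 10524 genes tested, the 39 replication genes, 13 mitosis genes and 11 neuron markers. The replication curve lies to the right of the curve of all genes, with medians of 0.16 and 0.01.

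Every measured member of the replicative helicase class had a higher mean in gata2cko. So did those of the strand binding and Okazaki class (5 of 5) and of the cyclin E, histone and methylation class (3 of 3). Mcm2 to Mcm7 encode the 6 subunits of the MCM ring, Gins1, Gins2 and Gins3 encode parts of the GINS complex that joins it in the active helicase, and Mcm10 encodes a factor needed to fire origins. All 10 were measured, their differences ran from 0.11 to 0.33 with a median of 0.17, and 1 of them, Mcm10, had an unadjusted p under 0.05. Leaving out single arrays, all 10 stayed positive except without mutant array 2R, where Mcm7 was at -0.01.

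Mcm10 measured 8.74, 8.47 and 8.80 in controls 5R, 6R and 7R and 9.09, 9.01 and 8.91 in mutants 1R, 2R and 3R. Every mutant value was above every control value, and the lowest control was 6R. The difference was 0.33 ± 0.12 (limma estimate and SE, n = 3 pools per group), a ratio of 1.26, with a 95% interval of 0.07 to 0.59 and an adjusted p of 0.455. A second detected probe of the gene gave 0.41.

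Mcm3 measured 7.67, 7.32 and 7.54 in controls and 7.87, 7.77 and 7.67 in mutants. The groups did not overlap at full precision, but mutant 3R and control 5R both round to 7.67. The difference was 0.26 ± 0.13 (adjusted p = 0.591 by limma) and 0.17 without control 6R. Mcm6 measured 9.51, 9.21 and 9.61 in controls and 9.59, 9.85 and 9.65 in mutants, so that mutant 1R lay within the control range. Its difference was 0.25, and its other detected probes gave 0.17 and -0.01.

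The other ring subunits differed by 0.18 for Mcm2, 0.17 for Mcm5, 0.14 for Mcm4 and 0.11 for Mcm7, and the GINS subunits by 0.20 for Gins2, 0.17 for Gins3 and 0.11 for Gins1. In each of these 7 genes the groups overlapped. Gins4, the GINS subunit outside the list, differed by 0.03. Gins2 had 3 detected probes at 0.20, 0.33 and 0.42, the one with the smallest difference being the brightest and so the one used for the gene.

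**Figure D3:**
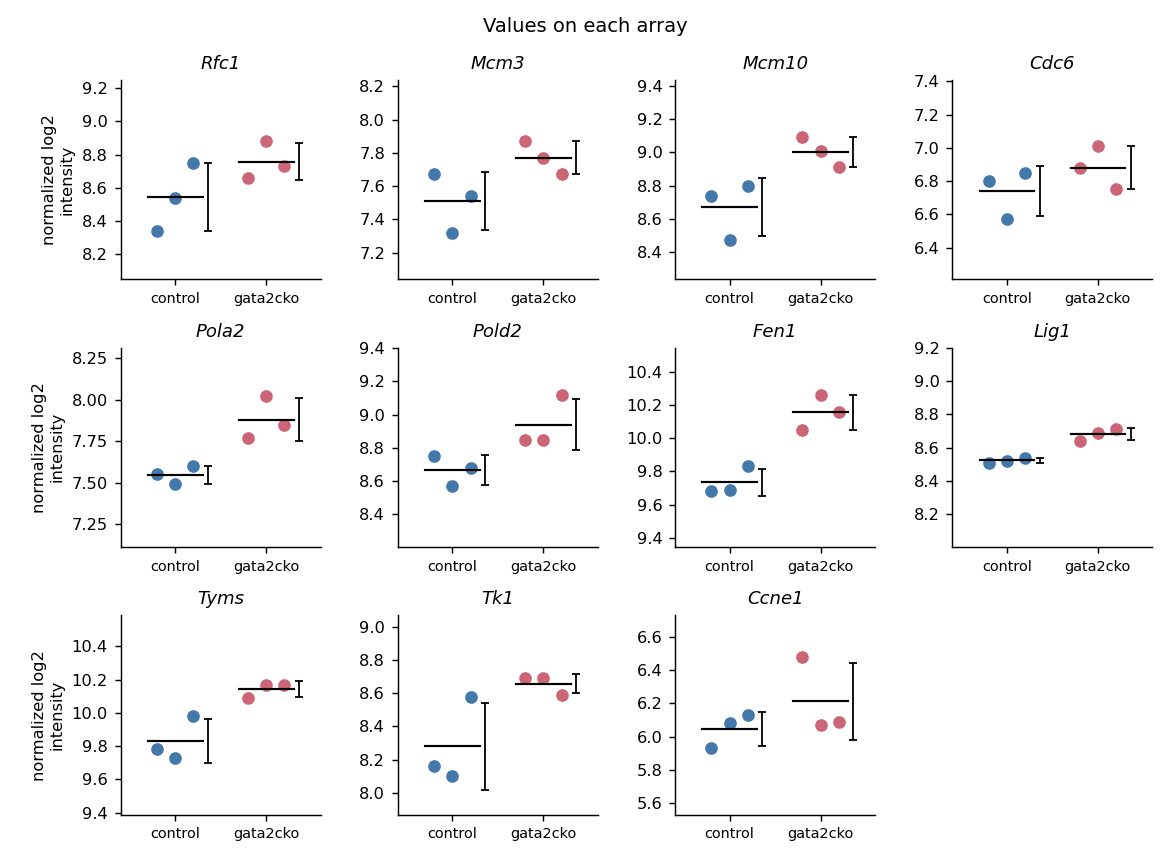
Normalized log2 intensity (vertical axis, each panel spanning the same range of 1.2 log2 units) of 11 replication genes on each array, controls in blue in the order 5R, 6R and 7R and gata2cko in red in the order 1R, 2R and 3R; horizontal lines are means and error bars are SD (n = 3). The groups are apart in Mcm3, Mcm10, Pola2, Pold2, Fen1, Lig1, Tyms and Tk1 and overlap in Rfc1, Cdc6 and Ccne1.

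The promoters of the helicase genes are shown because E2F factors are known to drive this class, and they can be read without the array. Of the 45 genes, 37 had a promoter in the RefSeq table (GRCm38.p6, 250 bases before to 50 after a gene's start). The E2F letters searched were TTTCCCGC, TTTGGCGC, TTTCGCGC and TTTGCCGC on both strands; matches may overlap each other. They were present in 14 of these 37 genes, 37.8%, beside 4.75% of the genes tested that had a promoter in the table. Over all genes in the table the share was 2.60%. The 37 include genes not measured on the arrays, among them Pola1 and Pole2, which had a match. Per promoter the shares were 31.8% for the members and 3.90% for the genes tested. A match describes letters and not a bound site. Mcm5 and Mcm6 are given whole and Mcm3, Mcm7 and Gins3 as short windows, 5′ to 3′ along the gene, with the E2F letters or their reverse complement in capitals.
Mcm5 (chr8:75109259-75109558, + strand): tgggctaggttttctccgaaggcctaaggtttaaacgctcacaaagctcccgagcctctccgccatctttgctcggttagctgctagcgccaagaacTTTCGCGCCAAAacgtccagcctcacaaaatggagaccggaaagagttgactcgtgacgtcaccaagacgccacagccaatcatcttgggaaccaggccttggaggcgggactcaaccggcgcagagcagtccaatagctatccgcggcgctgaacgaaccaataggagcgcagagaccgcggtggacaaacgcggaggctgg
Mcm6 (chr1:128359656-128359955, - strand): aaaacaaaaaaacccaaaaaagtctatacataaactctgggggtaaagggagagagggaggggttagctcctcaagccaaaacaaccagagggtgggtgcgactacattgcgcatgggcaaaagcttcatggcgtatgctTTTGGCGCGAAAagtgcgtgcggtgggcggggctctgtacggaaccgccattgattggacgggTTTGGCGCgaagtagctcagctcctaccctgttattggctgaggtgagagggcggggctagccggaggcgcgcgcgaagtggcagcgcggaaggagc
Mcm3 (chr1:20820275-20820304, - strand): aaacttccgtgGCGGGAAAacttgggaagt
Mcm7 (chr5:138172030-138172059, - strand): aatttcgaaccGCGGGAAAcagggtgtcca
Gins3 (chr8:95633507-95633536, + strand): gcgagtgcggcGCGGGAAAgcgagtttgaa
In Mcm5 the letters TTTCGCGC begin at position -153 from the start (the first transcribed base is 1 and there is no 0), and the reverse complement of TTTGGCGC begins at -149 and overlaps them. In Mcm6 such a pair begins at -110 and -106, and TTTGGCGC occurs again at -47. The window of Mcm3 begins its match at 20, with TTTGGCGC again at 39, that of Mcm7 at -165 and that of Gins3 at -41.

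The promoters of Mcm2 and Mcm10 held none of the E2F letters in these windows, and Mcm4, Gins1 and Gins2 had no promoter in the table. Beyond the helicase, matches were found in Rfc3, Cdc6, Cdt1, Pola1, Pold1, Pold3, Pole2, Lig1 and Uhrf1. On the arrays, genes with and without a match had similar medians. The 12 measured genes with E2F letters had a median difference of 0.15 with 10 higher in gata2cko, and the 20 measured genes with a promoter but no match had a median of 0.17 with 16 higher. The CCAAT box, searched as CCAAT on both strands, was in 59.5% of the 37 genes beside 43.5% of genes tested, and TTTGAA, the core of the element of late cell cycle genes called CHR, in 10.8% beside 13.9%.

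Okazaki fragment processing and single-strand binding genes were all higher on average, and held the replication gene with the smallest p. Fen1 encodes the flap endonuclease that trims the start of each Okazaki fragment. It measured 9.68, 9.69 and 9.83 in controls and 10.05, 10.26 and 10.16 in mutants. Mutant values were all above control values, by more than the SD within either group (0.09 and 0.11). The difference was 0.42 ± 0.10, a ratio of 1.34, with a 95% interval of 0.20 to 0.64 (adjusted p = 0.238 by limma, unadjusted p = 0.00119). It stayed between 0.37 and 0.48 when single arrays were left out. Fen1 has 1 probe named here.

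Lig1 encodes the ligase that then seals the fragments. It measured 8.51, 8.52 and 8.54 in controls and 8.64, 8.69 and 8.71 in mutants, which are narrow groups that did not overlap. The difference was 0.16 ± 0.10 (adjusted p = 0.706 by limma, which borrows spread from other genes). Its 3 other detected probes gave 0.15, 0.03 and -0.22, and with the mean of its probes the gene was at 0.03, so its separation rests on the brightest probe. Of the replication protein A subunits, which coat single-stranded DNA, Rpa2 measured 7.87, 7.74 and 8.08 in controls and 8.25, 8.26 and 8.01 in mutants. Control 7R and mutant 3R overlapped, the difference was 0.28 (adjusted p = 0.561 by limma, unadjusted p = 0.0481), and a second detected Rpa2 probe gave -0.08. Rpa1 differed by 0.11 and Rpa3 by 0.08. Rpa3 was spread widely among mutants, from 10.03 on 1R to 10.92 on 2R.

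The nucleotide supply class had a median difference of 0.24, with 5 of 6 genes higher in gata2cko. This was the highest median of the classes, but the class also holds Ung, which does not supply nucleotides and had its highest difference. Tyms encodes thymidylate synthase, which makes dTMP. It measured 9.78, 9.73 and 9.98 in controls and 10.09, 10.17 and 10.17 in mutants. The groups were apart, with control 7R the nearest to the mutants. The difference was 0.31 ± 0.10, a ratio of 1.24 (adjusted p = 0.412 by limma). The 3 other detected probes of Tyms, all dimmer, gave 0.01, 0.05 and 0.11, and the mean of its probes gave 0.12.

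Tk1, the thymidine kinase of the salvage pathway, measured 8.16, 8.10 and 8.58 in controls and 8.69, 8.69 and 8.59 in mutants. Control 7R was close to the mutant values and the other controls lay well below. The difference was 0.37 ± 0.13 (adjusted p = 0.455 by limma), and it was 0.52 without control 7R. Ung encodes uracil DNA glycosylase, which removes uracil from DNA. It measured 7.27, 6.70 and 6.90 in controls and 7.19, 7.52 and 7.52 in mutants. Mutant 1R was below control 5R, so the groups overlapped in the gene whose difference was the highest of the list (0.45, adjusted p = 0.455 by limma). Its other detected probes, near background, gave 0.58 and -0.02. The probe at 0.58 was above background on only 3 arrays. The detection filter may have kept it through the group where it was higher, so it adds no support for the difference.

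The ribonucleotide reductase subunits Rrm1 and Rrm2, which make deoxynucleotides, differed by 0.16 and 0.15. The less bright Rrm1 probes gave -0.09 and -0.19, against 0.22 for the second Rrm2 probe. Dut, the dUTPase that keeps uracil out of DNA, had means of 6.59 and 6.58, with a 95% interval of the difference from -0.35 to 0.34.

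Among the polymerases and primase, 6 of 9 genes were measured and 5 of these were higher in gata2cko, with a median of 0.21. Pola2 encodes the regulatory subunit of polymerase alpha. It measured 7.55, 7.49 and 7.60 in controls and 7.77, 8.02 and 7.85 in mutants. The groups were apart. The difference was 0.33 ± 0.12 (adjusted p = 0.455 by limma), and the gene has 1 probe.

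Pold2, the second subunit of polymerase delta, measured 8.75, 8.57 and 8.68 in controls and 8.85, 8.85 and 9.12 in mutants. Mutant 3R was the highest, and the groups did not overlap. The difference was 0.27 ± 0.12 (adjusted p = 0.538 by limma) and 0.18 without 3R. The catalytic subunit Pold1 had means of 9.16 and 9.15, a difference of -0.01, and the third subunit Pold3 differed by 0.15. Prim2, the large primase subunit, differed by 0.27, but its second detected probe gave -0.16. Pole, the catalytic subunit of polymerase epsilon, differed by 0.13. Of the delta and epsilon subunits outside the list, Pold4 differed by 0.02, Pole3 by -0.04 and Pole4 by -0.14. Pola1, Prim1 and Pole2 were above background on 0 of 6 arrays with every probe named for them. A probe at background does not show that a gene is silent.

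The sliding clamp and its loader had differences on both sides of 0. Replication factor C, encoded by Rfc1 to Rfc5, opens the PCNA ring and loads it onto DNA. Of its 5 genes 3 were higher and 2 lower, and the class median with Pcna was 0.01, the same as the median of all genes tested. The difference between this class and the helicase class was not tested. Rfc1, the large subunit, measured 8.34, 8.54 and 8.75 in controls and 8.66, 8.88 and 8.73 in mutants, with overlap and a difference of 0.22 ± 0.13 (adjusted p = 0.664 by limma). Its difference was 0.11 without control 5R. Rfc2 differed by 0.06, Rfc3 by 0.02, Rfc5 by -0.04 and Rfc4 by -0.10. Rfc2 had 4 detected probes at 0.03 to 0.21, all positive. The other detected probes of Rfc5, each above background on 3 arrays, gave 0.12 and 0.21, and that of Rfc4 gave 0.00. The signs in this class thus depend on the probe used. With the mean of a gene's probes the class median was 0.06, beside 0.17 for the helicase class and 0.01 for all genes tested.

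The clamp itself was poorly measured. The 1 probe named for Pcna measured 5.34, 4.73 and 5.36 in controls and 5.14, 5.24 and 5.03 in mutants, close to background, and was below it on control 6R. Its difference of -0.01 has a 95% interval of -0.40 to 0.39, and it ran from -0.21 to 0.10 leaving out single arrays. This probe therefore says little about Pcna.

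Origin licensing was measured through 3 of 5 genes. Cdc6, the loading ATPase, measured 6.80, 6.57 and 6.85 in controls and 6.88, 7.01 and 6.75 in mutants, with overlap and a difference of 0.14 ± 0.14 (adjusted p = 0.812 by limma). Its difference was 0.06 without control 6R and 0.08 without mutant 2R. Cdt1, its partner in loading, differed by -0.07 and Orc6, a subunit of the origin recognition complex, by 0.03. Gmnn, the inhibitor of CDT1 known as geminin, and Orc2 were above background on 0 of 6 arrays.

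In the remaining group, Ccne1 and Ccne2 encode the E cyclins that drive entry into S phase. Ccne1 measured 5.93, 6.08 and 6.13 in controls and 6.48, 6.07 and 6.09 in mutants, where 1R alone was high. The difference was 0.17 ± 0.15 (adjusted p = 0.802 by limma), 0.03 without 1R and 0.11 without control 5R. Ccne2 differed by 0.16, with control 6R low at 6.88 and every other array between 7.36 and 7.65. Uhrf1, which brings the maintenance DNA methyltransferase to newly copied DNA, differed by 0.08. Slbp, which binds the stem-loop of replication-dependent histone mRNAs, was above background on 0 of 6 arrays.

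Where a gene had several detected probes, they did not always point one way. Of the 16 genes with more than 1 detected probe, 8 had probes all of one sign. Over all 67 detected probes the median difference was 0.15, near the 0.16 over genes.

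The members varied together from pool to pool, and not only between genotypes. After each gene was centred on its mean over the 6 arrays, the median of the 39 genes was -0.06, -0.21 and 0.02 in controls 5R, 6R and 7R and 0.08, 0.16 and 0.03 in mutants 1R, 2R and 3R. Control 7R and mutant 3R were thus almost level, control 6R was the lowest and mutant 2R the highest. The members' median difference was 0.11 without 6R and 0.14 without 2R, against 0.16 with all arrays. Array 6R held the lowest of the 6 values in 22 of 39 genes, 56.4%, beside 14.7% of all genes tested, and the highest in 0. Mutant 2R held the highest value in 17 of the 39, 43.6%, beside 20.1% of all genes tested. As a description, 37 of the 39 genes correlated positively over the 6 arrays with the mean of the other members (median r = 0.694), and Dut and Cdt1 negatively. The arrays share their normalization, and this correlation includes the difference between genotypes. No share over all genes tested was computed for it. The non-members most like the members' mean over the 6 arrays were Mc4r (r = 0.992), Zfp280b (r = 0.991), Rfx4 (r = 0.989), Prdx4 (r = 0.988) and Ggt6 (r = 0.984), picked from all genes tested.

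**Figure D4:**
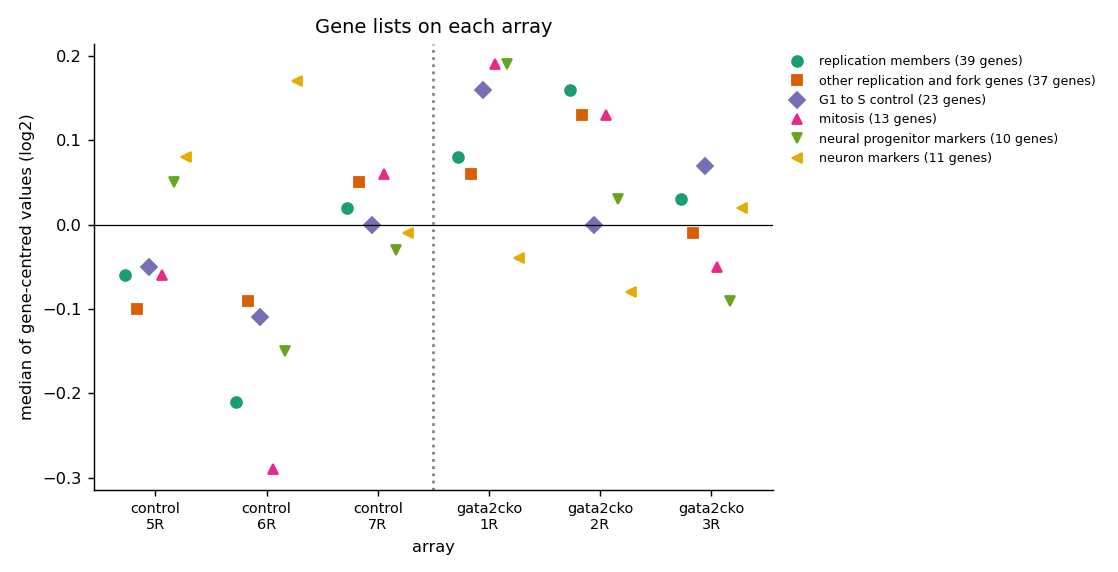
Median over each list of gene-centred normalized log2 values (vertical axis) on the 3 control arrays and the 3 gata2cko arrays (horizontal axis), for the replication genes, other replication and fork genes, G1 to S control genes, mitosis genes, neural progenitor markers and neuron markers. Control 6R is lowest for the replication (-0.21) and mitosis (-0.29) genes and highest for the neuron markers (0.17).

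Other genes of the same processes had medians above the 0.01 of all genes tested. Of 46 other replication and fork genes, 37 were measured with a median of 0.11. Of these, 30 were higher in gata2cko, 81.1% beside 53.3% of all genes tested. At an unadjusted p under 0.05, 5 were higher (13.5%, beside 4.34% of all genes tested) and 1 was lower (beside 4.48%). After adjustment by limma 0 passed (smallest adjusted p = 0.278). Claspin (Clspn), an adaptor of the replication checkpoint, differed by 0.45, the histone chaperone subunit Chaf1a by 0.33 and the helicase Recql4 by 0.39. Top1, the topoisomerase that relieves supercoils, was at -0.24 (adjusted p = 0.555 by limma).

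Of 23 further nucleotide genes, 21 were measured with a median of 0.06, and 14 were higher, 66.7% beside 53.3% of all genes tested. At an unadjusted p under 0.05 there were 4, all higher (19%, beside 4.34% of all genes tested), and 0 passed after adjustment by limma. The folate enzymes Shmt1 and Mthfd1 differed by 0.41 and 0.34, and Umps, which makes UMP, by 0.28. Of 30 genes of G1 to S control, 23 were measured with a median of 0.08, and 18 were higher, 78.3% beside the same 53.3%. At an unadjusted p under 0.05 there were 6, all higher (26.1%, beside the same 4.34%), and 0 passed after adjustment by limma. The D cyclins Ccnd1 and Ccnd3 differed by 0.34 and 0.38 (adjusted p = 0.292 and 0.326 by limma) and the retinoblastoma relative Rbl1 by 0.37.

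Mitosis genes, which act after replication, had a median of 0.19. Of 18, 13 were measured and all 13 were higher in gata2cko, beside 53.3% of all genes tested. At an unadjusted p under 0.05 there was 1 (7.69%, beside 4.34% of all genes tested that were higher), and 0 passed after adjustment by limma. Birc5 (survivin) differed by 0.32, Tpx2, a spindle assembly factor, by 0.23 and Cdk1 by 0.23. Ccnb2, Bub1 and Cenpe did not pass the detection filter, and Mki67 and Ccnb1 had no probe named here.

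Markers of the other cell types of the tissue are given beside these values; their part in the result was not tested. Neuron markers had a median of -0.08, with 9 of 11 measured below 0 and 0 passing by limma. The share above 0 was 18.2%, beside 53.3% of all genes tested. At an unadjusted p under 0.05, 1 was lower, beside 4.48% of all genes tested. The summed level of neuron markers was 14.83 to 14.96 in controls and 14.72 to 14.83 in mutants (log2 of the sum). Syt1 was the lowest at -0.62 (adjusted p = 0.0614 by limma) while Dcx was at -0.16 and Nefm at -0.26. The 2 above 0 were Elavl3 at 0.16 and Ina at 0.01. Progenitor markers did not share one direction. Of 10 measured, 4 were higher, 40% beside 53.3% of all genes tested, and the median was 0.00. The summed level of progenitor markers was 14.37 to 14.58 in controls and 14.43 to 14.68 in mutants. The 4 higher were Hes5 at 0.37 (adjusted p = 0.331 by limma), Nes at 0.23, Vim at 0.19 and Fabp7 at 0.12. The other 6 were Notch1 at -0.13, Sox2 at -0.09, Slc1a3 at -0.05, Sox9 at -0.02, and Hes1 and Prom1 at 0.00. Serotonergic neuron markers, all 4 measured of 5, passed and were lower, with a summed level of 11.20 to 11.59 in controls and 7.05 to 8.16 in mutants. Summed levels of erythroid markers were 15.50 to 15.70 and 15.59 to 15.78 (4 of 6 measured), of endothelial markers 9.30 to 9.46 and 9.10 to 9.39 (4 of 5), of mesenchymal markers 7.18 to 7.43 and 7.21 to 7.27 (2 of 7, with the collagens Col1a1, Col1a2 and Col3a1 at background), and of microglial markers 7.62 to 7.81 and 7.40 to 7.50 (3 of 5).

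**Figure D5:**
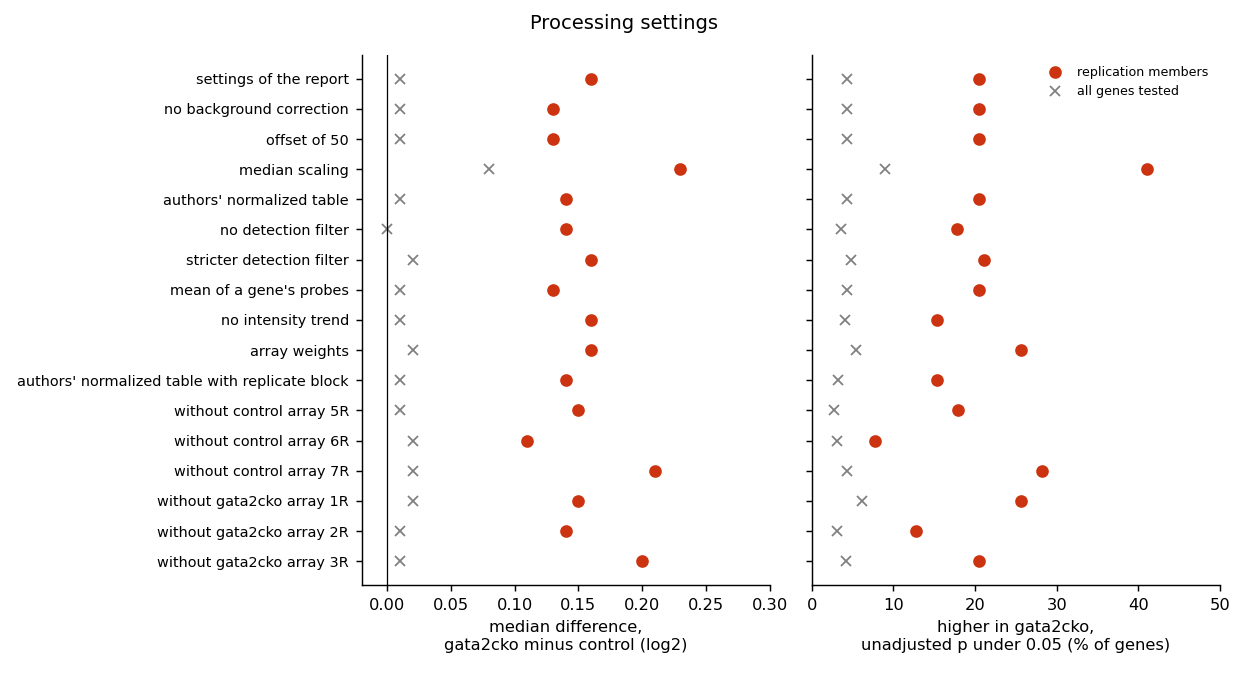
Left, median difference between gata2cko and control (log2) over the replication genes and over all genes tested under each processing setting and with each array left out; right, percent of genes higher in gata2cko at an unadjusted p under 0.05. The median of the replication genes is above that of all genes in every setting shown, and it is lowest, 0.11, without control array 6R.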

How the data were processed

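RNA of 3 control and 3 gata2cko pools was measured on 6 arrays. Linear, not normalized probe intensity was deposited by the authors, per the file headers. A detection p-value, which sets a probe's signal against background, follows each array's intensity column, per the file headers. The submitters' processing notes name GenomeStudio 1.0, with no role. Columns name the genotype but no titled sample, so they served as unnumbered replicates of a genotype. The authors' own normalized intensity, also deposited, served as an alternative.

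Intensities were background-corrected, quantile-normalized and put on the log2 scale with limma 3.58.1 in R 4.3.3 (neqc, offset 16). Background correction widens differences of dim genes. A probe entered the fit if its detection p-value was under 0.05 on 3 or more of the 6 arrays (19936 of 45276 probes). Of all probes, 34881 had 1 gene symbol in the platform annotation, 18 several and 10377 none; 0 symbols changed against GRCm38.p6 gene records. A gene's brightest detected probe was used (10524 genes). The fit was limma's lmFit and eBayes with an intensity trend, adjusted by the Benjamini-Hochberg method over genes and tested on simulated data.

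The members, the lists beside them and the tests were chosen with earlier results of these data known. Values on every array were given for members past the threshold, with separate groups, or with the smallest p of their class, and also for Mcm6, Rpa2, Ung and Pcna, chosen after their values were seen; of the other replication, nucleotide, G1 to S and mitosis lists the 3 genes with the smallest p were named. Top1, Gins4, Pold4, Pole3, Pole4 and the cell type markers named were picked after their values were seen. The number of arrays limits the precision. Alternatives were median scaling, an offset of 50, skipping the background correction, the authors' table with and without a replicate block, dropping the detection filter or requiring a p-value under 0.01 on each of the 3 arrays of a genotype, averaging a gene's probes, dropping the trend, array weights, a threshold of 0.1 and leaving out each array. No slide or scan label was given, so such batches were not analysed here.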

Additional observations from a re-analysis of the deposited data

How the results depend on the processing

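No replication gene passed an adjusted p of 0.05 under any alternative run, and the members' median stayed positive, from 0.11 to 0.23. Median scaling gave 16 members at an unadjusted p under 0.05 and 19 with separate groups, all higher, including the 8 separate under quantile normalization. Over all genes tested, 8.99% were then higher at that threshold and 15.2% were separate and higher. Median scaling also moved the median of all genes tested to 0.08 and the share of all genes higher in gata2cko to 69.1%. The members' median then lay 0.15 above that of all genes, as it did with quantile normalization. Leaving out each array in turn gave 9 to 51 genes called among all tested and 3 to 11 members at an unadjusted p under 0.05. It gave 9 to 20 members that were separate and higher, and 31 to 36 members with a positive difference. Of all genes tested, 2.76% to 6.11% were higher at that threshold in these fits. From 11.2% to 15.9% were separate and higher, and 51.6% to 54.5% had a positive difference. Of the 33 higher members, 25 stayed positive without each array in turn. All 11 members with full statistics kept their sign under every alternative. The lowest values were 0.03 for Lig1 with the mean of its probes and 0.03 for Ccne1 without mutant array 1R. These 11 were picked in the same data for separate groups or the smallest p of their class. A kept sign was therefore likely from the outset and is no independent check. Deviations of pools with the same replicate number in the sample titles correlated at -0.04, -0.09 and -0.30, and those of the other pairs at -0.10 to 0.19. These values show no pairing by number, but with 3 pools per genotype they cannot exclude one. With a replicate block on the authors' normalized table, 6 members had an unadjusted p under 0.05, all higher. Beside them, 3.22% of all genes tested were higher at this threshold. In this fit 0 members passed, 14 genes were called in all, and the members' median was 0.14. The dim Pcna probe and the 6 genes not above background limit what these arrays show of the list.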
